A study of Mus musculus with 6 samples.

Results

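Liver mRNA levels of 10 genes for abundant plasma proteins were compared between GalNAc-siRnf10-treated and GalNAc-siNC-treated mice. The genes were chosen by name: the fibrinogen chain genes Fga, Fgb and Fgg, the inter-alpha-trypsin inhibitor heavy chain genes Itih1, Itih2, Itih3 and Itih4, the ceruloplasmin gene Cp, and the macroglobulin genes A2m and Pzp. They are 10 of the 55487 genes in the count table, and all 10 passed the filter on low counts that left 14046 genes for testing. The mice were wild-type males of the C57BL/6J strain on normal chow, 17 weeks old when the liver was collected. One group of 3 received GalNAc-siRnf10 (named GalNAc-siRnf10-2 in the study), an siRNA against Rnf10 joined to N-acetylgalactosamine, a sugar that the asialoglycoprotein receptor of hepatocytes binds. The other group of 3 received GalNAc-siNC, the same kind of conjugate with a negative control siRNA. Each library was made from the liver of 1 mouse, so hepatocytes and the other cells of the organ were measured together. A single conjugate against Rnf10 was used in these livers, so effects of its sequence on other mRNAs cannot be told apart from effects of lower Rnf10.

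Fibrinogen is assembled in the hepatocyte from pairs of an Aα, a Bβ and a γ chain, and thrombin turns it into the fibrin of a clot. The inter-alpha-trypsin inhibitor family consists of heavy chains that are carried to hyaluronan by the bikunin light chain and stabilise the extracellular matrix. Macroglobulins trap proteases in plasma, and ceruloplasmin is a copper-bound ferroxidase. Several of these proteins belong to the acute phase response, in which interleukin 6 acts on hepatocytes through STAT3.

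The targeted gene was lower in every library of its group. Rnf10 mRNA stood at 3869, 4536 and 4040 normalized counts in the GalNAc-siNC livers and at 1738, 1820 and 1793 in the GalNAc-siRnf10 livers. A normalized count is the count scaled by the library's effective size (trimmed mean of M values, TMM). Rnf10 was 57.0% lower (log2 fold change -1.22, SE 0.0715, adjusted p = 3.29e-09, edgeR quasi-likelihood test). Total counts per library were between 26854377 and 33058645. GalNAc-siNC replicate 1 stood apart from the other controls: genes with models under 1000 bases lay a median of 0.28 below them on the log2 scale, but genes with models of 2000 to 10000 bases, the range that holds all 10 genes, differed by 0.0027. Of the hepatocyte markers, 6 of 10 were higher in the GalNAc-siRnf10 livers, 4 were neither and none was lower. Their summed level was 33507 to 35854 RPKM (TMM-scaled counts per kilobase of gene model) in the GalNAc-siNC livers and 49305 to 51023 in the GalNAc-siRnf10 livers. Alb, the marker with the most counts, enters that sum, and its mean rose from 1159040 to 1805570 normalized counts. No sum without Alb was taken, so the summed rise does not describe each marker.

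Of the 10 genes, 9 were lower in the GalNAc-siRnf10 livers at an adjusted p under 0.05 in edgeR and none was higher, also at an unadjusted p under 0.05 or in DESeq2 and voom. Across all tested genes, 14.0% were called, 7.28% lower and 6.71% higher. The median log2 fold change was -0.76 over the 10 genes and 0.0022 over all tested genes. The same 9 genes had groups that did not overlap, with every GalNAc-siRnf10 liver below every GalNAc-siNC liver, as 16.4% of tested genes had. Among the 136 tested genes at least as abundant as Itih1, which include 9 of the 10, 27.9% were lower and 38.2% higher. Without those 9, 30 of 127 (23.6%) were lower and 52 (40.9%) higher. In whole-liver RNA, fewer cells of a type and less RNA per cell cannot be told apart. The 2 directions were nearly balanced over all calls, with 48.0% higher, but scaling by library size alone gave 35.1% higher and the same 9 of the 10 genes lower. With 3 livers per group an exact permutation test on 1 gene cannot give a p under 0.1, which is the value for each of the 9 genes, so calls rest on the edgeR fit across all genes.

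**Figure D1:**
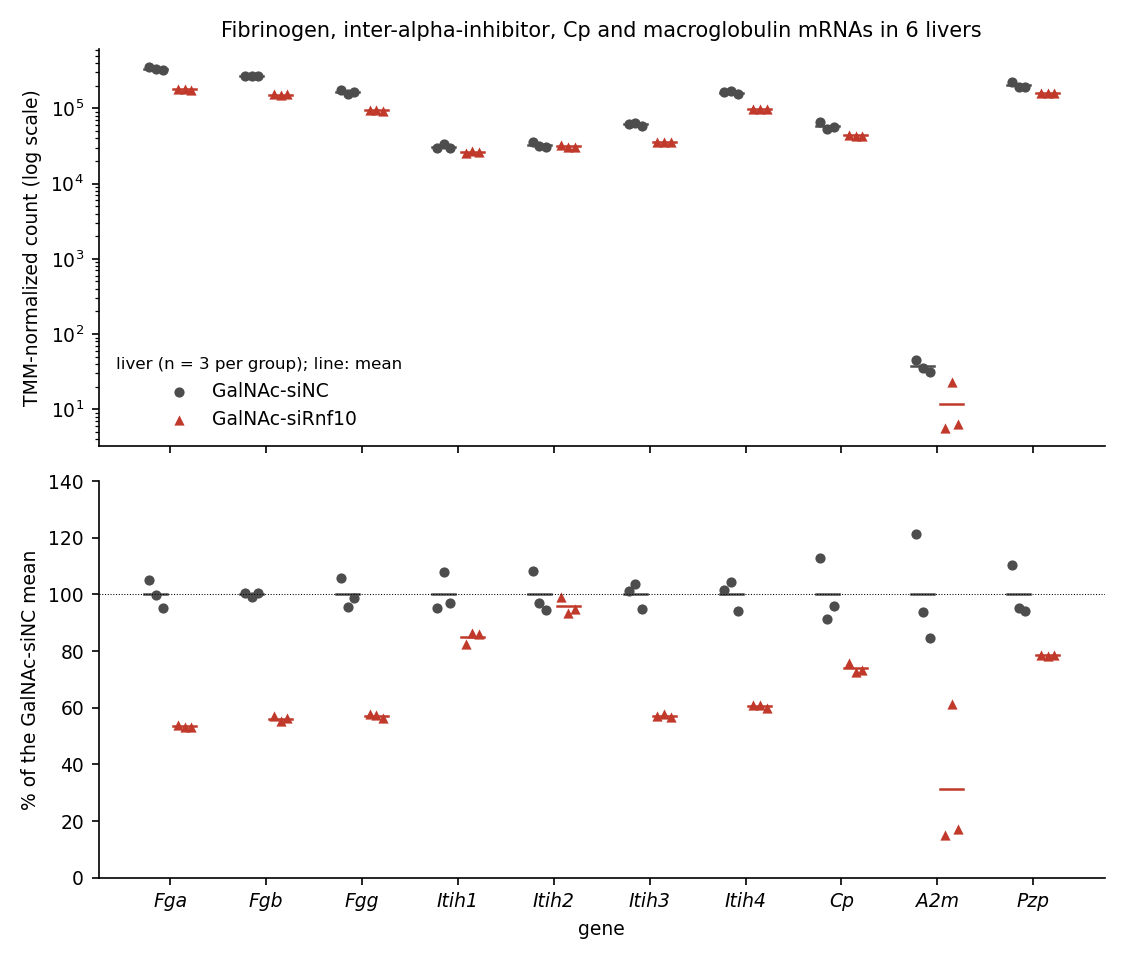
Upper panel: TMM-normalized counts (log scale) of the 10 genes in each of 3 GalNAc-siNC livers (circles) and 3 GalNAc-siRnf10 livers (triangles), with lines at the group means. Lower panel: the same values as a percent of the GalNAc-siNC mean. The GalNAc-siRnf10 livers sit below the GalNAc-siNC livers for every gene except Itih2, whose groups overlap, and A2m lies far below the other genes in level.

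The 3 fibrinogen chain mRNAs were lower by similar amounts, 42.7% to 46.5%. Fga, which encodes the Aα chain, had 350627, 333335 and 317832 normalized counts in the GalNAc-siNC livers and 180415, 178084 and 177373 in the GalNAc-siRnf10 livers. The highest treated liver was far below the lowest control liver. The mean fell from 333931 ± 16406 to 178624 ± 1591 (SD, n = 3), which is a log2 fold change of -0.90 (SE 0.0485, 95% interval -1.01 to -0.80, adjusted p = 1.24e-09, edgeR).

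Fgb encodes the Bβ chain. Its normalized counts were 272628, 268062 and 271697 in the GalNAc-siNC livers against 154315, 149447 and 152776 in the GalNAc-siRnf10 livers. The controls lay close to each other, and the groups were widely separated. The means were 270796 ± 2413 and 152179 ± 2488 (SD, n = 3), and the log2 fold change was -0.83 (SE 0.0449, 95% interval -0.93 to -0.74, adjusted p = 1.24e-09, edgeR).

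Fgg encodes the γ chain, and its counts were 173635, 156730 and 162290 in the controls and 95168, 94173 and 92716 after GalNAc-siRnf10. Again no treated liver reached the lowest control. The fall from 164218 ± 8616 to 94019 ± 1233 (SD, n = 3) gave a log2 fold change of -0.80 (SE 0.0503, 95% interval -0.91 to -0.70, adjusted p = 7.08e-09, edgeR). Together the chains took 2.77%, 2.59% and 2.55% of all counts in the GalNAc-siNC livers and 1.42%, 1.39% and 1.41% in the GalNAc-siRnf10 livers.

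Per length, the Fga mRNA was the most abundant of the 10 in both groups. Its mean level was 3739 RPKM in the GalNAc-siNC livers, which placed it 17th of the tested genes, and 2000.3 in the GalNAc-siRnf10 livers, where it was 34th. Fgg fell from 2645 to 1514 and Fgb from 2396 to 1346 on the same scale, from rank 25 to 42 and from rank 28 to 47. The chains thus kept their order within each group.

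Ratios of the chains were taken within each liver, where library scaling cancels. The Fgb to Fga ratio of counts per kilobase was 0.642 ± 0.0310 in the GalNAc-siNC livers and 0.673 ± 0.00905 in the GalNAc-siRnf10 livers (SD, n = 3; exact permutation p = 0.2, adjusted over the 7 ratios p = 0.28), with overlapping groups. The Fgg to Fgb ratio was 1.10 ± 0.0496 and 1.12 ± 0.0213 (exact permutation p = 0.5), also with overlap. The Fgg to Fga ratio was 0.708 ± 0.0293 and 0.757 ± 0.00461, without overlap, but its exact permutation p was 0.1, the smallest possible, and 0.175 after adjustment. A shift of this ratio, 0.10 on the log2 scale, was small beside the fall of either chain. It depended on GC and length: with offsets for both, the log2 ratio difference was -0.016 for Fgg to Fga and -0.085 for Fgg to Fgb, opposite in sign to the 0.10 and 0.028 without them.

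**Figure D2:**
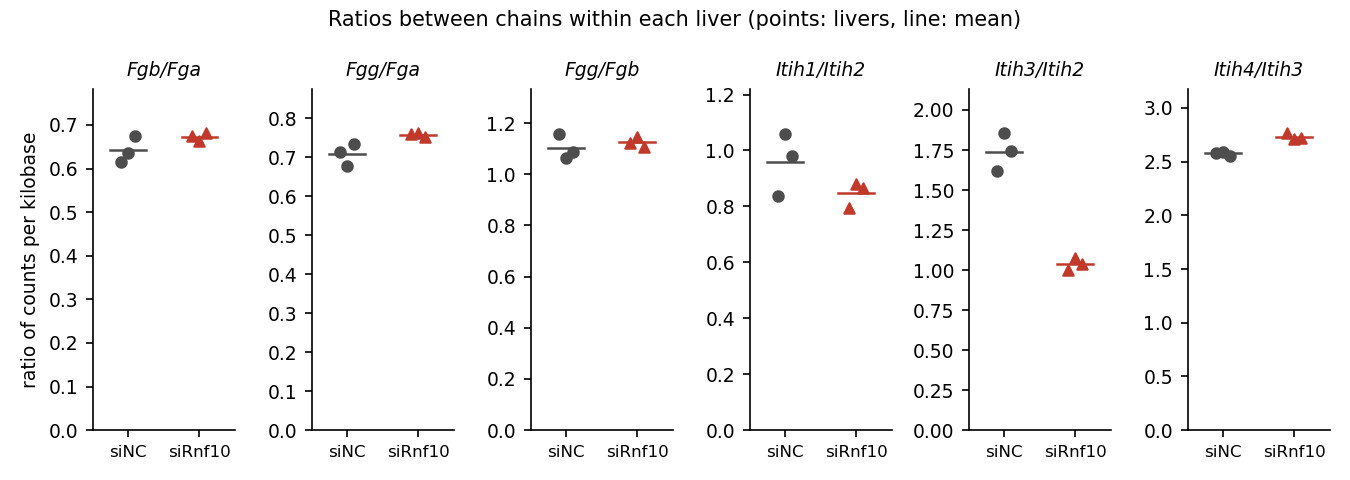
Ratio of counts per kilobase (vertical axis, from 0) of gene pairs within each of the 3 GalNAc-siNC livers (circles) and 3 GalNAc-siRnf10 livers (triangles), with lines at the means. The ratios among fibrinogen chains differ little between the groups, whereas Itih3 to Itih2 drops from a mean of 1.74 to 1.04.

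The fibrinogen genes are neighbours on mouse chromosome 3 (GRCm38 coordinates of the count table). Fgg lies at chr3:83007724-83015049 on the plus strand, Fga at chr3:83026076-83033627 on the plus strand and Fgb at chr3:83040141-83049863 on the minus strand. Gaps of 11026 bases separate Fgg from Fga and 6513 bases separate Fga from Fgb. Their gene models hold 10, 6 and 8 exonic intervals. The only tested non-member within 100 kb, Plrg1, named after its value was seen, lies 5658 bases beyond Fgb and had a log2 fold change of 0.095 (adjusted p = 0.547, edgeR).

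The stretches just upstream of these genes are shown because their regulation by interleukin 6 and liver factors is well studied and the 3 mRNAs moved together. Sequences are from RefSeq (GRCm38.p6), up to 250 bases before the annotated start, written 5′ to 3′ on the gene's strand, and any bases that the count table assigns to an exon were left off. Of the 10 genes, 9 had such an entry, Cp 2 of them and A2m none. Capitals mark matches, on either strand, to the STAT palindrome TTCNNNGAA, the interleukin 6 element CTGGGAA or the C/EBP letters TTGCNNAA. No matches overlapped each other in these windows. The regions are chr3:83007474-83007723 (plus) for Fgg, chr3:83025903-83026075 (plus) for Fga and chr3:83049864-83050113 (minus) for Fgb.

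Fgg: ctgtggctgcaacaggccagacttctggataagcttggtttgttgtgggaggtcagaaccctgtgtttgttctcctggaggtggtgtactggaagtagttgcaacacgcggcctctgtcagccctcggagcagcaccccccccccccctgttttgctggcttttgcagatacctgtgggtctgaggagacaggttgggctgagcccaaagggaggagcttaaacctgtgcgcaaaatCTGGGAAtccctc
Fga: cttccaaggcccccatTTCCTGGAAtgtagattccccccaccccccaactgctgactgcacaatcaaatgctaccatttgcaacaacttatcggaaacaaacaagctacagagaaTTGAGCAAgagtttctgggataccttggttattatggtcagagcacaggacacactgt
Fgb: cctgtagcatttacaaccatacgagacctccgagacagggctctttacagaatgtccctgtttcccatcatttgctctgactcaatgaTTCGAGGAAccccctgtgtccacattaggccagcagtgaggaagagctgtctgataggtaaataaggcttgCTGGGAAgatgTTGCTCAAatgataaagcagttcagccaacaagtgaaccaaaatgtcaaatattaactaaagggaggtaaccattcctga

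The Fgb stretch held all 3 kinds of match, with the STAT palindrome 162 bases, CTGGGAA 91 bases and the C/EBP letters 80 bases before the start. In Fga, the STAT palindrome began 234 bases and the C/EBP letters 135 bases before the RefSeq start. The last 77 bases of that Fga window are exonic in the count table and are not printed. Its RefSeq start therefore lies 77 bases beyond the end of the printed stretch. Fgg had CTGGGAA only, 13 bases before the start. Over 32851 RefSeq promoter windows of the same length, 7.02% held the STAT palindrome, 9.10% CTGGGAA and 9.56% the C/EBP letters. Among the 10 full windows of the genes described here, 3, 2 and 4 held them. A match describes letters only and is not a measured binding site.

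The heavy chain genes of the inter-alpha-trypsin inhibitor family differed from each other in their change. Itih3 and Itih4 were lower by 42.7% and 39.3%, Itih1 by 15.1%, and Itih2 did not pass the test. Itih3, whose heavy chain joins bikunin to form pre-alpha-inhibitor, had 62742, 64348 and 58909 normalized counts in the GalNAc-siNC livers and 35346, 35949 and 35228 in the GalNAc-siRnf10 livers. The treated livers lay close to each other and well below all controls. The mean of 61999.9 ± 2795 fell to 35507 ± 387 (SD, n = 3), which is a log2 fold change of -0.80 (SE 0.0511, 95% interval -0.91 to -0.70, adjusted p = 8.35e-09, edgeR).

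Itih4 encodes a relative that is secreted without bikunin and is known as an acute phase protein. The GalNAc-siNC livers had 164395, 169175 and 152739 normalized counts and the GalNAc-siRnf10 livers 99040, 98894 and 97187. Here too the lowest control was well above every treated liver. The log2 fold change was -0.72 (SE 0.0502, 95% interval -0.83 to -0.61, adjusted p = 2.47e-08, edgeR), from 162103 ± 8455 to 98373 ± 1030 (SD, n = 3).

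Itih1 and Itih2 encode the heavy chains that bikunin joins in inter-alpha-inhibitor itself. For Itih1, the GalNAc-siNC livers had 29421, 33342 and 29977 normalized counts and the GalNAc-siRnf10 livers 25460, 26661 and 26590. The groups did not overlap, but the distance between them was smaller than for Itih3 or Itih4. Its log2 fold change was -0.24 (SE 0.0568, 95% interval -0.36 to -0.12, adjusted p = 0.0094, edgeR), from 30913 ± 2121 to 26237 ± 674 (SD, n = 3). This call was lost when any single GalNAc-siRnf10 liver was left out (log2 fold changes -0.21, -0.25 and -0.25, adjusted p = 0.0969, 0.0542 and 0.0583 without replicates 1, 2 and 3).

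For Itih2, 35308, 31642 and 30818 normalized counts were found in the GalNAc-siNC livers and 32276, 30448 and 30932 in the GalNAc-siRnf10 livers. The groups overlapped. The means were 32589 ± 2390 and 31218.5 ± 947 (SD, n = 3), with a log2 fold change of -0.062 (SE 0.0579, adjusted p = 0.544, edgeR). The 95% interval of the difference ran from -0.18 to 0.06.

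The difference between heavy chains was also seen within livers. The Itih3 to Itih2 ratio of counts per kilobase was 1.62, 1.85 and 1.74 in the GalNAc-siNC livers and 0.998, 1.08 and 1.04 in the GalNAc-siRnf10 livers. These groups did not overlap, and the mean ratio was 40.3% lower (exact permutation p = 0.1, the smallest possible, adjusted p = 0.175). The Itih1 to Itih2 ratio, 0.960 ± 0.112 and 0.847 ± 0.0465, overlapped between groups (SD, n = 3; exact permutation p = 0.3). The Itih4 to Itih3 ratio was slightly higher after GalNAc-siRnf10, 2.73 ± 0.0271 against 2.58 ± 0.0186 (exact permutation p = 0.1, adjusted p = 0.175), without overlap.

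Per length, the order of the heavy chains in the GalNAc-siNC livers was Itih4 (1481 RPKM), Itih3 (574), Itih2 (331) and Itih1 (316). In the GalNAc-siRnf10 livers the levels were 899, 329, 317 and 269. Itih3 and Itih2 were thus apart in the controls and close to each other in the treated livers, where their ratio lay on both sides of 1.

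Itih1, Itih3 and Itih4 are adjacent on chromosome 14, whereas Itih2 lies on chromosome 2. Itih4 is at chr14:30886476-30902353 (plus), Itih3 at chr14:30908572-30923760 (minus) and Itih1 at chr14:30929180-30943289 (minus), with gaps of 6218 and 5419 bases. Itih2 is at chr2:10094593-10131396 (minus). Genes of 1 cluster therefore differed in the size of their change, with Itih1 between Itih2 and its own neighbours. The upstream stretches of the 4 genes, cut as before, are printed to set the chromosome 14 cluster beside Itih2. Their regions are chr14:30886226-30886475 (plus) for Itih4, chr14:30923761-30923837 (minus) for Itih3, chr14:30943290-30943539 (minus) for Itih1 and chr2:10130684-10130933 (minus) for Itih2, the last inside the count table's longer Itih2 model but outside its exons.

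Itih4: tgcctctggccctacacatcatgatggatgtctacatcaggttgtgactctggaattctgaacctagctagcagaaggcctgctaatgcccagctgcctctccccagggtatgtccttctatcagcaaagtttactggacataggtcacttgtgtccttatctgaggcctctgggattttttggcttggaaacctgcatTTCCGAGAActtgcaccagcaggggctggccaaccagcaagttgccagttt
Itih3: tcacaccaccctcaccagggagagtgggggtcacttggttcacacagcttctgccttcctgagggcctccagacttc
Itih1: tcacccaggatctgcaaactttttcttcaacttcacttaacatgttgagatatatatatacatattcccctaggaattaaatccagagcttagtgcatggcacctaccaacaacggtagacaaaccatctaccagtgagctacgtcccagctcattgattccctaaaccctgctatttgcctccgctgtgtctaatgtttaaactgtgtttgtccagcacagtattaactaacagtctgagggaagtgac
Itih2: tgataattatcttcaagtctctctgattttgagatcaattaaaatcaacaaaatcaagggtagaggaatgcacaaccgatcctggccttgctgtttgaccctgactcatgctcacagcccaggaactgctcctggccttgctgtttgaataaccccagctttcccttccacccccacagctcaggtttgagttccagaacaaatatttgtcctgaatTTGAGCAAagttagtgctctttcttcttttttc

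Itih4 held 1 STAT palindrome, 51 bases before the start. Itih2 held the C/EBP letters 33 bases before it. No searched letters occurred in the whole 250-base windows of Itih1 and Itih3, which says nothing about factors that bind elsewhere or to other letters.

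**Figure D3:**
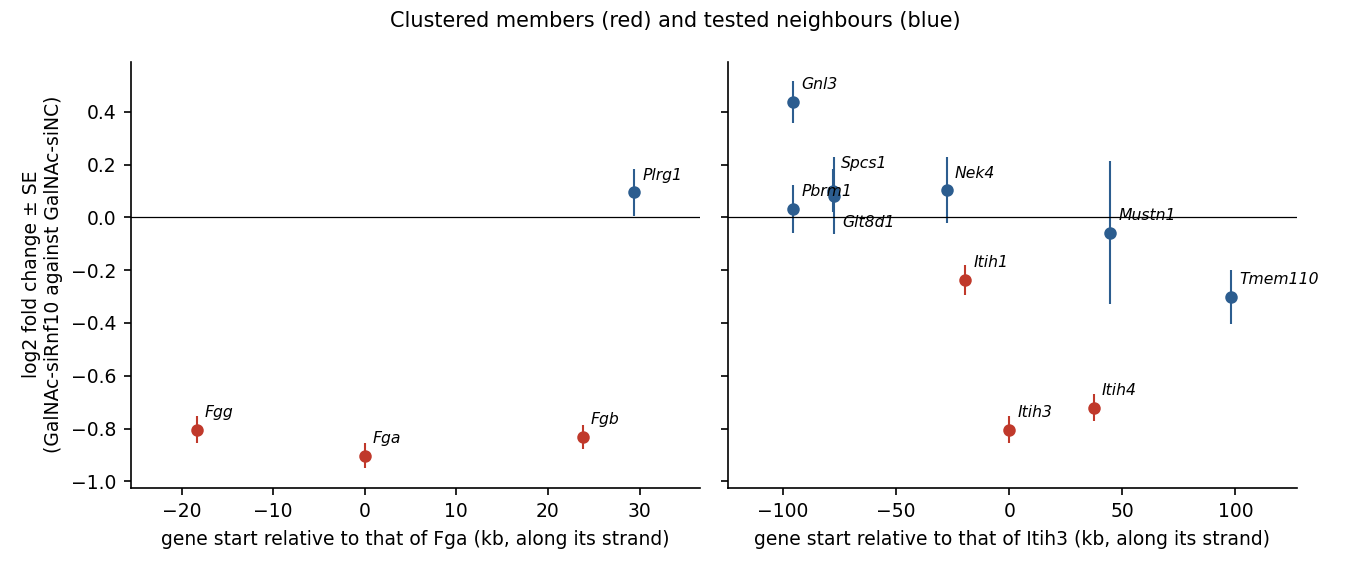
Log2 fold change with SE (vertical axis) of the clustered genes (red) and of tested neighbours within 100 kb (blue) against the position of their starts relative to Fga (left) or Itih3 (right), in kb along that gene's strand. Sfmbt1, whose start lies outside the plotted window, is not drawn. The red genes lie below 0, and no blue gene was called lower, beside 7.28% of all tested genes.

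Around all 10 genes, 23 other tested genes lay within 100 kb. None was lower at an adjusted p under 0.05, 4 were higher and 19 were neither, with a median log2 fold change of 0.057. Over all tested genes 7.28% were lower and 6.71% higher, so finding none lower among 23 is close to the share over all genes. At an unadjusted p under 0.05 in edgeR 2 were lower, Sfmbt1 and Tmem110, while DESeq2 and voom called 0 lower and the fits without GalNAc-siNC replicate 1 or 3 each called 1, Tmem110. Those called higher were Gnl3, a nucleolar GTPase gene near Itih1 (0.44, adjusted p = 0.00112, edgeR), Atp5c1, an ATP synthase subunit gene near Itih2 (0.32, adjusted p = 0.0012), Itih5 (0.42, adjusted p = 0.00367) and the predicted gene Gm18009 near Pzp (1.65, adjusted p = 0.0353), with means of 7.06 and 22.95 normalized counts. The Gm18009 call was lost in each fit without 1 liver except GalNAc-siNC replicate 1 (1.29 to 1.73, adjusted p = 0.0875 to 0.134) and with the GC and length offsets (1.42, adjusted p = 0.0579, edgeR). Itih5, a further heavy chain gene, starts 22174 bases from Itih2. Its 613 ± 49.7 normalized counts rose to 820 ± 18.9 (SD, n = 3), opposite in direction to Itih1, Itih3 and Itih4.

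Of 9 other genes of the inter-alpha-inhibitor system that were listed, 5 were tested, 1 was higher, 2 were lower and 2 were neither (median log2 fold change -0.11). Ambp encodes the precursor of bikunin, the light chain that the heavy chains need. It had 97999, 117201 and 113755 normalized counts in the GalNAc-siNC livers and 85808, 82795 and 84101 in the GalNAc-siRnf10 livers. The groups did not overlap, and the log2 fold change was -0.38 (SE 0.0604, adjusted p = 0.00033, edgeR), between those of Itih1 and Itih4. Hyal2, a hyaluronidase, was called lower at -0.30 (adjusted p = 0.046) although its groups overlapped. The call for Hyal2 was lost with voom, with a term for replicate number (replicate block) and with the GC and length offsets. It was lost also in each fit without GalNAc-siNC replicate 2 or 1 GalNAc-siRnf10 liver. Over those fits the log2 fold change was -0.36 to -0.21 (adjusted p = 0.0654 to 0.225, voom or edgeR).

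Ceruloplasmin mRNA was 26.0% lower. Cp, at chr3:19957054-20009145 (plus), had 66314, 53730 and 56453 normalized counts in the GalNAc-siNC livers and 44647, 42826 and 43073 in the GalNAc-siRnf10 livers. The first control was the highest by a wide margin, and the other two were also above all treated livers. The mean fell from 58832 ± 6621 to 43515.5 ± 988 (SD, n = 3), which is a log2 fold change of -0.44 (SE 0.067, 95% interval -0.58 to -0.29, adjusted p = 0.000338, edgeR). Without GalNAc-siNC replicate 1 the log2 fold change was -0.34, still past the threshold. Per length, Cp was at 207 RPKM in the controls and 153 in the treated livers. Its exons share 108 bases with Hps3 on the opposite strand, which had 205 to 274 counts per library, few beside Cp.

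Ceruloplasmin receives its copper in the secretory pathway from the ATPase encoded by Atp7b. Of 11 other copper genes listed, 10 were tested, and Atp7b alone was called. Its 1063 ± 61.6 normalized counts fell to 869 ± 39.1 (SD, n = 3; log2 fold change -0.29, adjusted p = 0.0226, edgeR), a call lost in the fits without GalNAc-siNC replicate 2 or 1 GalNAc-siRnf10 liver (-0.31 to -0.24, adjusted p = 0.0668 to 0.138). The Atp7b call was lost also with GC and length offsets plus the replicate block (-0.20, adjusted p = 0.0638, edgeR). The median log2 fold change of the tested copper genes was 0.25. GalNAc-siNC replicate 1 was well below the other controls for several of these genes and the highest control for others. A median without that liver was not taken.

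Pzp and A2m, both on chromosome 6, differed in level by several orders of magnitude. Pzp, which encodes a plasma macroglobulin, lies at chr6:128483567-128526720 (minus). It had 222463, 192352 and 190178 normalized counts in the GalNAc-siNC livers and 158439, 157989 and 158652 in the GalNAc-siRnf10 livers. The treated livers were almost equal and lay below all controls. The mean was 21.5% lower, 158360 ± 339 against 201664 ± 18045 (SD, n = 3), with a log2 fold change of -0.35 (SE 0.0571, 95% interval -0.47 to -0.23, adjusted p = 0.000423, edgeR). Leaving out GalNAc-siNC replicate 1, the highest control, gave -0.27, still past the threshold. An antisense gene, Gm10069, shares 303 exonic bases with Pzp but had only 10 to 31 counts per library.

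A2m, at chr6:121635376-121679227 (plus), was barely detected. The libraries held 52, 34 and 32 counts of it in the GalNAc-siNC livers and 5, 24 and 6 in the GalNAc-siRnf10 livers. Normalized, these were 45.3, 35.1 and 31.6 against 5.65, 22.9 and 6.39. The groups did not overlap, but 1 treated liver was much closer to the controls than the others. The log2 fold change of -1.63 had a wide 95% interval, -2.57 to -0.69 (SE 0.445, adjusted p = 0.0203, edgeR). Without GalNAc-siRnf10 replicate 2 it was -2.61, and the call was lost without GalNAc-siNC replicate 2 (-1.68, adjusted p = 0.054) or GalNAc-siRnf10 replicate 1 (-1.32, adjusted p = 0.106) or 3 (-1.34, adjusted p = 0.114). Per length it was at 0.179 RPKM in the controls, against 1060 for Pzp.

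**Figure D4:**
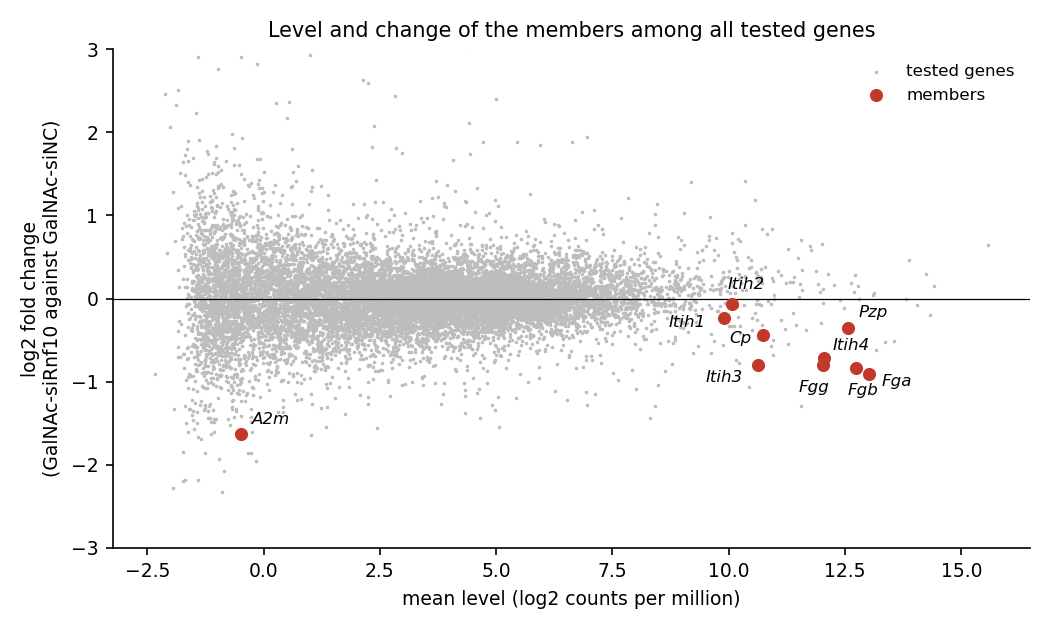
Log2 fold change (vertical axis, GalNAc-siRnf10 against GalNAc-siNC) against mean level (log2 CPM) for all tested genes (grey) and the 10 genes described (red). The axis ends at -3 and 3, which leaves 9 tested genes outside. All red points lie below 0, Itih2 close to it, and A2m is the single red point at low level.

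Macroglobulin relatives moved in both directions. Of 9 listed, 7 were tested, 4 were lower, 1 was higher and 2 were neither (median log2 fold change -0.32). The murinoglobulins, rodent macroglobulins made by the liver, were called in opposite directions: Mug1 rose from 99395 ± 9515 to 124600 ± 684 normalized counts (0.33, adjusted p = 0.00118, edgeR), and Mug2 fell from 15999 ± 1332 to 11040 ± 398 (SD, n = 3; -0.54, adjusted p = 1.3e-05). Of the 50-base stretches of their transcripts, 26.5% for Mug1 and 50.5% for Mug2 also occur in each other or in related pseudogenes, so how their reads were divided is uncertain. For the 10 genes described here such sharing was between 0% and 3.23%. Lrp1, the receptor that clears macroglobulin and protease complexes, fell by 0.56 on the log2 scale, from 34014 ± 3052 to 23071 ± 164 normalized counts (adjusted p = 5.51e-06, edgeR). The complement components C3 (-0.52) and Hc (-0.32), which share the macroglobulin fold, were also lower.

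**Figure D5:**
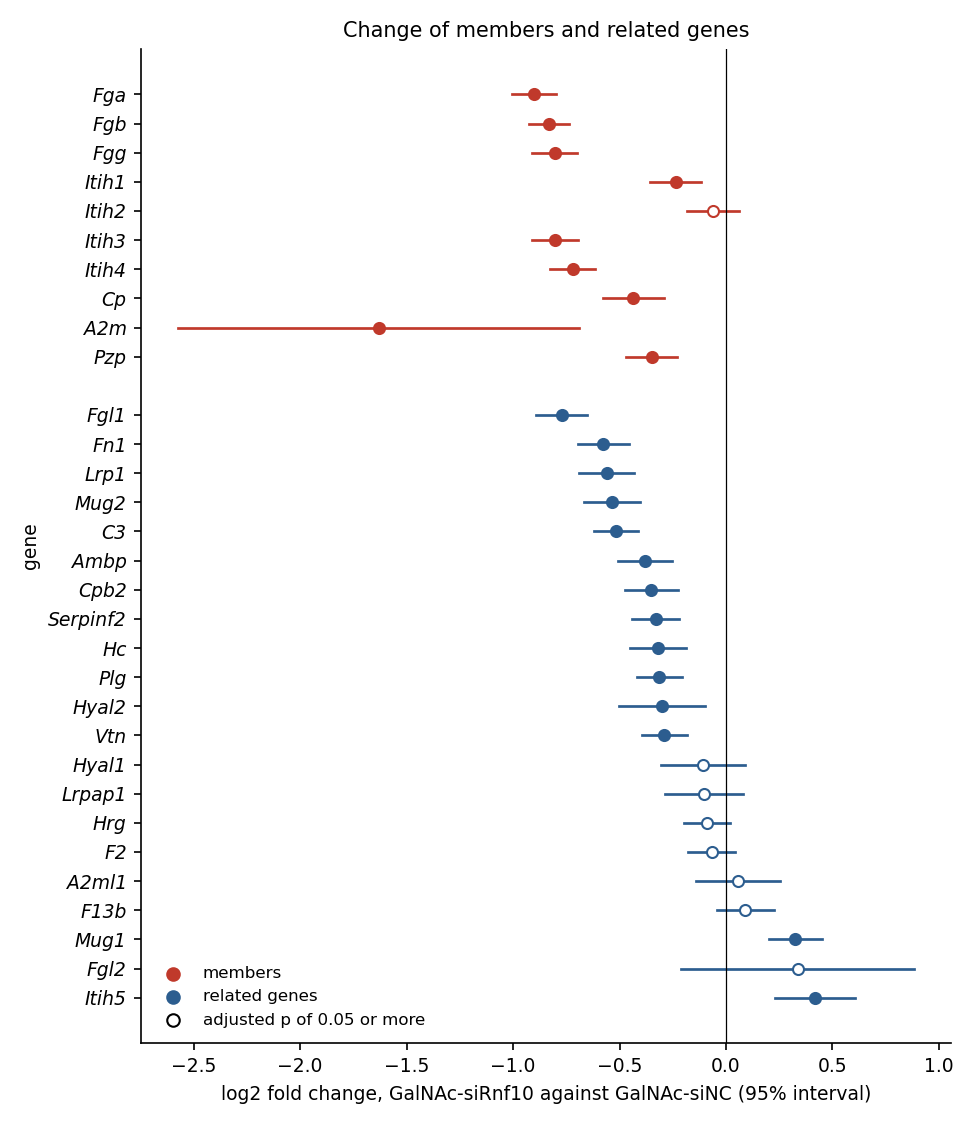
Log2 fold change with its 95% interval for the 10 genes (red) and for tested related genes that averaged 50 normalized counts or more (blue). Open points did not pass an adjusted p of 0.05. Fga, Fgb, Fgg, Itih3 and Itih4 lie between -0.90 and -0.72, near Fgl1 at -0.77, whereas Mug1 and Itih5 lie above 0.

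Of 14 genes that make, crosslink, bind or dissolve fibrin or resemble fibrinogen, 13 were tested, 6 were lower and 7 were neither (median log2 fold change -0.31). The fibrinogen-like hepatokine gene Fgl1 was the most changed of them, from 46272 ± 3392 to 27120 ± 325 normalized counts (SD, n = 3; -0.77, adjusted p = 4.62e-08, edgeR). Fn1, the fibronectin gene, followed at -0.58. The others were Cpb2, an inhibitor of fibrin breakdown (-0.35), Serpinf2, the plasmin inhibitor (-0.33), Plg, the plasmin precursor (-0.31), and Vtn, vitronectin (-0.29). Called genes therefore included both plasmin's precursor and its inhibitor. Prothrombin, F2, did not pass (-0.067, adjusted p = 0.45), and was named after its value was seen.

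Genes of interleukin 6 signalling and liver transcription factors were mixed. Of 17 listed, 16 were tested, 4 were lower, 1 was higher and 11 were neither (median log2 fold change -0.14). Stat3, the transcription factor that carries the interleukin 6 signal, had 5511, 5119 and 4891 normalized counts in the GalNAc-siNC livers and 3580, 3549 and 3606 in the GalNAc-siRnf10 livers. Its groups were well separated, with a log2 fold change of -0.53 (SE 0.0629, adjusted p = 1.42e-05, edgeR). Socs3, a target and inhibitor of STAT3, fell from 971 ± 233 to 374 ± 10.6 (SD, n = 3; -1.37, adjusted p = 0.000134). The receptor gene Il6ra rose instead, from 1450.4 ± 22.2 to 2130.1 ± 53.5 (0.55, adjusted p = 1.76e-05, edgeR).

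The signalling subunit Il6st did not pass the test (-0.16, adjusted p = 0.131, edgeR). The transcription factor genes Foxa1 (-0.81) and Foxa2 (-0.53) were lower. Cebpb, a C/EBP factor, varied widely between the controls, from 1648 in replicate 1 to 3966 in replicate 2, and was at 4302, 4065 and 4621 in the treated livers (0.57, adjusted p = 0.402). Without GalNAc-siNC replicate 1 it was called higher, at 0.28 (adjusted p = 0.0466, edgeR). The Il6 mRNA itself had at most 4 counts in any library and was not tested.

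Of 12 other acute phase genes listed and tested, 10 were lower and 2 neither, with a median log2 fold change of -0.86. Without GalNAc-siNC replicate 2 the lower count was 6: Saa1 (-1.04, adjusted p = 0.0982, edgeR), Saa3 (-1.11, 0.0785), Orm1 (-0.63, 0.0667) and Orm3 (-0.48, 0.0822) missed the threshold. Saa1 and Orm3 missed it also in each fit without 1 GalNAc-siRnf10 liver, which left 8 lower. Lcn2, an iron-siderophore binding protein gene, was at -1.44, the serum amyloid gene Saa2 at -1.29 and the haptoglobin gene Hp at -0.62. Saa2 has close paralogs, among which reads may be divided uncertainly. The uncalled genes, named after their values were seen, were Crp (-0.057) and the hepcidin gene Hamp (0.39, adjusted p = 0.0948, edgeR). The fibrinogen chains, at -0.90 to -0.80, were near that median.

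Chains of secreted proteins are folded in the endoplasmic reticulum, and of 13 folding and export genes tested, 6 were lower and 7 neither (median log2 fold change -0.19). The disulfide isomerase Pdia4 was at -0.45, calreticulin, Calr, at -0.34, Pdia6 at -0.31, Pdia3 at -0.30, Hsp90b1 at -0.28 and P4hb at -0.23. Hsp90b1 missed the threshold without GalNAc-siRnf10 replicate 2 (-0.28, adjusted p = 0.0508, edgeR). These values were smaller in size than those of the fibrinogen chains.

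The 5 other genes with a profile over the 6 livers most like the mean fibrinogen profile were Lbp, St6gal1, Spp1, Hmgcs1 and Slc25a30, by the distance between log2 deviations from each gene's mean, among tested genes with at least 50 normalized counts. Lbp encodes the lipopolysaccharide-binding protein, an acute phase protein. Its normalized counts were 7490, 7385 and 7336 in the GalNAc-siNC livers and 4032, 3984 and 3956 in the GalNAc-siRnf10 livers (distance 0.0734). St6gal1, the sialyltransferase of plasma glycoproteins, was at distance 0.0821, Spp1, osteopontin, at 0.0946, Hmgcs1, a cholesterol synthesis enzyme, at 0.105, and Slc25a30, a mitochondrial carrier, at 0.132. Among the 10 genes, Itih3 was next to fibrinogen at 0.119 and Itih4 followed at 0.192. Cp (0.535), Pzp (0.623), Itih1 (0.774), Itih2 (0.967) and A2m (1.76) were farther away. These distances are a description and rest on the same 6 livers as the fold changes. They include the difference between the groups and so largely restate the fold changes.

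Markers of other liver cells were set beside these results, and none of them was absent from all libraries. None of 11 Kupffer cell markers was called by edgeR, DESeq2 or voom, although 2 had an unadjusted p under 0.05 in edgeR and Cd5l was called without GalNAc-siNC replicate 1, and their summed level was 126 to 161 RPKM in the GalNAc-siNC livers and 145 to 153 in the GalNAc-siRnf10 livers. Of the endothelial markers 2 of 9 and of the stellate cell markers 4 of 10 were higher, with summed levels of 20.04 to 20.7 against 22.3 to 23.9 and of 35.6 to 36.7 against 41.2 to 42.7. Bile duct markers summed to 38.9 to 40.2 in the controls and 21.4 to 21.9 in the treated livers, and of the 5 tested only Spp1 was called. That sum rests on Spp1: without it the bile duct markers summed to 1.71 to 2.46 in the controls and 1.56 to 1.65 in the treated livers. Of 10 leukocyte markers 3 were tested and 1, S100a9, was lower (summed levels 1.78 to 3.47 against 1.25 to 1.51), and of 8 tested platelet and red cell markers none was called by any of these tools, with 1 at an unadjusted p under 0.05 (214 to 322 against 257 to 290). Their part in the lower fibrinogen, heavy chain and macroglobulin mRNAs was not tested. In the 6 hepatocyte markers that were called the direction was opposite to that of the 9 genes. Alb (0.64), the hepatocyte marker with the most counts, was among them and enters their summed level. The 4 uncalled markers, named after their values were seen, were Apoa2 (0.63, adjusted p = 0.0796, edgeR), Asgr1 (0.11), Apoa1 (0.084) and Apob (-0.11).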

How the data were processed

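Liver RNA of 6 mice was sequenced, 3 treated with GalNAc-siNC and 3 with GalNAc-siRnf10, with 1 library per mouse, and groups were taken from the labels. All libraries carry the same batch label. Stranded mRNA libraries were read from both ends (150 bases), and the authors aligned the reads to GRCm38 (mm10) with HISAT2 and deposited a table of raw gene counts without normalization. The counting tool, the annotation release and the strand setting are not given in the sources used here. Of values between 1 and 20, 63.9% were even, against 50.1% of values above 100, so low counts may not be independent fragments. Symbols were matched for 55141 of 55487 identifiers.

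Counts were tested with edgeR 4.0.16 under R 4.3.3 (genes kept by filterByExpr, TMM scaling, robust quasi-likelihood F-test, Benjamini-Hochberg adjustment over 14046 genes, calls at an adjusted p under 0.05, treatment as the only term). The common dispersion was 0.00861. Spread differed between the groups. A chi-square of counts per gene between 2 livers of a group, larger where livers differ more, was 4.45 to 5.07 for GalNAc-siRnf10. It was 9.53 to 27.77 for GalNAc-siNC. The fit gave each gene the same dispersion in both groups, and the cause of the unequal spread was not tested. Levels per length used the gene model lengths of the count table. Ratios between chains were compared with exact two-sided permutation tests. Alternatives were DESeq2 1.42.0, limma 3.58.1 voom, other normalizations and filters, GC and length offsets, a replicate block, an adjusted p under 0.01, and leaving out each liver. Fits were first tested on simulated data. Total counts, 26854377 to 33058645 per library, leave counting error small for 9 of the 10 genes, but not for A2m or other genes with few counts, such as Gm18009 and S100a9.

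The genes, the related lists and the tests were chosen with earlier results of these data known. Named besides the 10 genes were Rnf10, called genes of the lists and among neighbours, set partners (Ambp, Mug1, Mug2, Stat3, Il6ra, Il6st, Cebpb, Lrp1, Atp7b), the 5 genes closest to the fibrinogen profile, and genes said to be named after their values were seen. Lists were described by counts, without set tests. Some genes of the liver factor list are not reported here and were left out of its counts.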

Additional observations from a re-analysis of the deposited data

How the results depend on the processing

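Across 11 alternative settings other than leaving out a liver, all 9 calls among the 10 genes were kept at an adjusted p under 0.05, except that A2m had no value with at least 10 counts required in every liver. At an adjusted p under 0.01, 8 of the 10 were called. Leaving out single livers gave 7 to 9 calls, Itih1 and A2m being the genes lost. The log2 fold changes of Fga ranged from -0.95 to -0.88 and those of Itih3 from -0.85 to -0.79 over the 11 settings. No gene named reversed its direction, but the log2 ratio differences did with GC and length offsets, to -0.016 for Fgg to Fga and -0.085 for Fgg to Fgb (-0.017 and -0.084 with the replicate block added). Samples of the 2 groups that share a number are different animals, and their deviations correlated at -0.00099, 0.027 and -0.034. These values gave no sign of pairing by number, but 3 livers per group cannot exclude it. With the replicate block 1816 genes were called, 9 of the 10 among them, and 1 instead of 2 inter-alpha-inhibitor relatives was lower, Hyal2 being lost. Over all tested genes, an adjusted p under 0.01 left 1042 calls, 502 higher and 540 lower. Leaving out single livers gave 1053 to 2864 calls, 520 to 1395 higher and 533 to 1469 lower, with the most calls without GalNAc-siNC replicate 1 and the fewest without GalNAc-siRnf10 replicate 1. For the lists, fits without single livers were added after seeing the data. They gave 1 to 2 lower inter-alpha-inhibitor relatives, 0 to 1 higher fibrin genes, 0 to 2 higher and 0 to 1 lower copper genes, 1 to 2 higher interleukin 6 and liver factor genes, 0 to 1 higher and 6 to 10 lower acute phase genes, and 0 to 1 lower neighbours. DESeq2 gave 2 higher interleukin 6 and liver factor genes and 1 higher acute phase gene. The cause of these differences was not tested. Depth limits A2m alone among the 10 genes.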
